A study of Mus musculus with 13 samples.

Results

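Transcript levels of 10 genes of the BCL-2 family were followed in bone marrow progenitors of 4 mouse genotypes: the anti-apoptotic genes Mcl1, Bcl2, Bcl2l1, Bcl2a1b, and Bcl2a1d, the effector Bak1, and the BH3-only genes Bid, Bcl2l11, Bad, and Bmf. They were chosen by name as members that are not usually counted among the p53 target genes, with earlier results of these data known. All 10 were found by their symbols among the 54838 genes of the count table. Of these, 8 passed a filter on low counts together with 17795 genes in all, and Bcl2a1b and Bcl2a1d did not.

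All mice were C57BL/6J and carried Mx1-Cre, a Cre recombinase under an interferon-inducible promoter that acts in blood-forming cells and in other tissues. Control mice (n = 3) carried Mx1-Cre alone, p53mut mice (n = 3) also 1 p53 R172H allele, NrasG12D mice (n = 3) 1 Nras G12D allele, and NPmut mice (n = 4) both alleles. The first 3 groups received 3 injections of 100 μg pI-pC, an interferon-inducing double-stranded RNA, from about 6 weeks of age, while NPmut mice were not injected, recombined their alleles without it, and were moribund with acute myeloid leukemia (AML) when cells were taken. Genotype, injection, and disease stage therefore cannot be told apart in any comparison that includes NPmut mice. From each mouse, RNA of 50000 sorted Lin- cKit+ bone marrow cells, a gate for hematopoietic stem and progenitor cells (HSPCs), was sequenced as 1 library.

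BCL-2 family proteins decide whether the outer membrane of mitochondria is opened, which releases cytochrome c and starts the caspase cascade. MCL-1, BCL-2, BCL-XL (Bcl2l1), and A1 (Bcl2a1) hold the pore-forming effectors BAK and BAX in check, and BH3-only proteins such as BIM (Bcl2l11), BID, BAD, and BMF bind the guardians, or in part the effectors, in response to stress. MCL-1 is needed for survival of hematopoietic stem cells, and BCL-2 and MCL-1 are both drug targets in AML.

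Libraries held 12576174 to 29124022 counts. The gate was checked on its own genes: Kit was measured in every mouse, at 504 to 568 CPM (counts per 1000000, scaled for library composition) in control and 284 to 451 CPM in NPmut mice, and was lower in NPmut mice (log2 fold change −0.54, SE 0.152, adjusted p = 0.0329). Of the 7 gate genes, 3 were lower, Kit, Gata2 (−1.65), and Slamf1 (−3.00), 1 was higher, Flt3 (1.15), and 3 were not called. Markers of other cells also moved: the summed level of 10 monocyte and macrophage genes was 433 to 478 CPM in control and 1032 to 2028 CPM in NPmut mice (6 of 10 tested genes higher), that of 14 erythroid genes 1013 to 1498 and 350 to 890 CPM (3 of 13 tested genes lower), and that of 8 megakaryocyte genes 135 to 213 and 14.2 to 72.2 CPM (6 of 6 lower). Of 4 tested dendritic cell genes 2 were higher and 1 lower, of 5 mast cell and basophil genes 1 and 1, of 3 stromal and endothelial genes 2 were lower, of 4 T and NK genes 1 was higher, and none of 5 B lymphoid and 10 neutrophil genes was called, at an adjusted p-value under 0.05. The part of these shifts in the results below was not tested. Over all genes tested, 5.25% were called higher and 5.58% lower in NPmut against control mice. Libraries also differed in reads on 1967 olfactory and vomeronasal receptor genes, which HSPCs are not known to use, with a sum of 109 to 202 CPM in control, 63.1 to 147 CPM in p53mut, 40.3 to 47.6 CPM in NrasG12D, and 18.4 to 61.0 CPM in NPmut mice.

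The sequences that limit or accompany the results are those of the Bcl2a1 genes and of the promoters of Mcl1 and Bid, the members that were higher in NPmut mice than in each of the other 3 genotypes. Of the 4 mouse Bcl2a1 copies, Bcl2a1a, Bcl2a1b, and Bcl2a1d lie close to each other on chromosome 9 and were compared, while Bcl2a1c lies apart on the same chromosome. Among the 3 coding sequences of 516 bases, Bcl2a1b and Bcl2a1d differ at 6 positions (98.8% identical), Bcl2a1a and Bcl2a1d at 7 (98.6%), and Bcl2a1a and Bcl2a1b at 11 (97.9%). The first 120 coding bases hold 7 of the 12 positions at which any of the 3 differ, shown in capitals (GRCm38, GENCODE M21, 5′ to 3′ on the coding strand, Bcl2a1a at chr9:88957051-88957170 plus strand, Bcl2a1b at chr9:89199360-89199479 plus strand, Bcl2a1d at chr9:88731600-88731719 minus strand):
Bcl2a1a: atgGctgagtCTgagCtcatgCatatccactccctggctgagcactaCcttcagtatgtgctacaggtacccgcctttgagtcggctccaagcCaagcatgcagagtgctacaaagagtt
Bcl2a1b: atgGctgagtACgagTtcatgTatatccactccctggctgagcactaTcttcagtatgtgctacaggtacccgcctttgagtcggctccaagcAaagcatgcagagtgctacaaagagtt
Bcl2a1d: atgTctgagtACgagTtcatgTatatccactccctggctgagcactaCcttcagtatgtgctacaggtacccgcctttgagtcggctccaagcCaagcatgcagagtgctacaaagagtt
Of all stretches of 50 bases in the annotated transcripts of Bcl2a1b, 79.2% are also in a transcript of another gene, and of Bcl2a1d 79.5%. Shared with another of the 3 compared copies were 57.6% for Bcl2a1b and 79.5% for Bcl2a1d. A read that lies wholly within a shared stretch cannot be given to 1 gene by its sequence. Mcl1, Bcl2l1, and Bmf share 0% of their stretches with any other gene and Bcl2l11 0.135%, so that this limit does not touch them. With other genes on either strand, Bcl2 shares 5.25% of its stretches, and Bid shares 16.4%, with Bcl2l13.

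The 250 bases before the RefSeq start site (GRCm38.p6) are shown for Mcl1, at chr3:95658471-95658720 on the plus strand, and for Bid, at chr6:120916825-120917074 on the minus strand, with the letters GGGCGG (a GC box) in capitals on either strand:
Mcl1: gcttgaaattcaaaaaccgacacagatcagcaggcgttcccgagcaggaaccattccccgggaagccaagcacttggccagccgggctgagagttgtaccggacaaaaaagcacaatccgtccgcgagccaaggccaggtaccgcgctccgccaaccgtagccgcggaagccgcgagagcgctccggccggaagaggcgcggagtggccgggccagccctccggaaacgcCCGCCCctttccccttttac
Bid: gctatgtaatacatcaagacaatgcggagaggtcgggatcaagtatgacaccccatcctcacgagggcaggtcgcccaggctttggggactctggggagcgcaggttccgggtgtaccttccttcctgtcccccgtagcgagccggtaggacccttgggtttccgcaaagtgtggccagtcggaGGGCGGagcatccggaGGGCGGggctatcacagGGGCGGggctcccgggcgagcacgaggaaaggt
The GC box occurs 1 time in the Mcl1 and 3 times in the Bid window, and 32.7% of all 32851 RefSeq windows of this length hold it on either strand. Of the 6 other motifs searched on both strands, none was in either window. They were the AP-1 motif TGANTCA, which 6.75% of all windows hold, and the CRE motif TGACGTCA, in 1.55%. The E-box was searched as CACGTG and is in 6.02% of windows. The GATA motif was AGATAA (9.99% of windows). For FOXO factors, the letters were GTAAACA (3.17% of windows). For STAT factors they were TTCNNNGAA, with any base at N, in 7.02% of windows. Bcl2l11, a gene known to be driven by FOXO factors, has GTAAACA in 1 of its 2 windows, and Bcl2l1, a known target of GATA1, has AGATAA in 1 of 3. The single windows of Bcl2a1b and Bcl2a1d each hold TGANTCA, with the letters TGAATCA. The 3 windows of Bmf hold none of the 7 motifs. A match of letters is no evidence that a factor binds there, and these windows leave out more distant elements.

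In control HSPCs, the order of the members per transcript length (RPKM, the CPM of the unscaled library total per kilobase of exon) was led by Mcl1, at 39.2 ± 2.10 RPKM (SD, n = 3), and the effector Bak1, at 36.8 ± 3.50. Bid at 16.7 ± 1.64 and Bcl2 at 14.7 ± 0.799 RPKM came next, followed by Bad at 5.99 ± 0.258, Bcl2l1 at 3.12 ± 0.229, Bcl2l11 at 3.11 ± 0.282, and Bmf at 0.0711 ± 0.0192 RPKM. Ranges of Mcl1 and Bak1, of Bid and Bcl2, and of Bcl2l1 and Bcl2l11 overlapped among control mice, so that the order within these pairs does not exceed their spread. In NPmut mice, Mcl1 stood apart from Bak1, with 47.0 to 65.6 RPKM against 26.9 to 40.7, and Bcl2l11 from Bcl2l1, with 3.28 to 9.15 RPKM against 2.07 to 2.51.

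**Figure D1:**
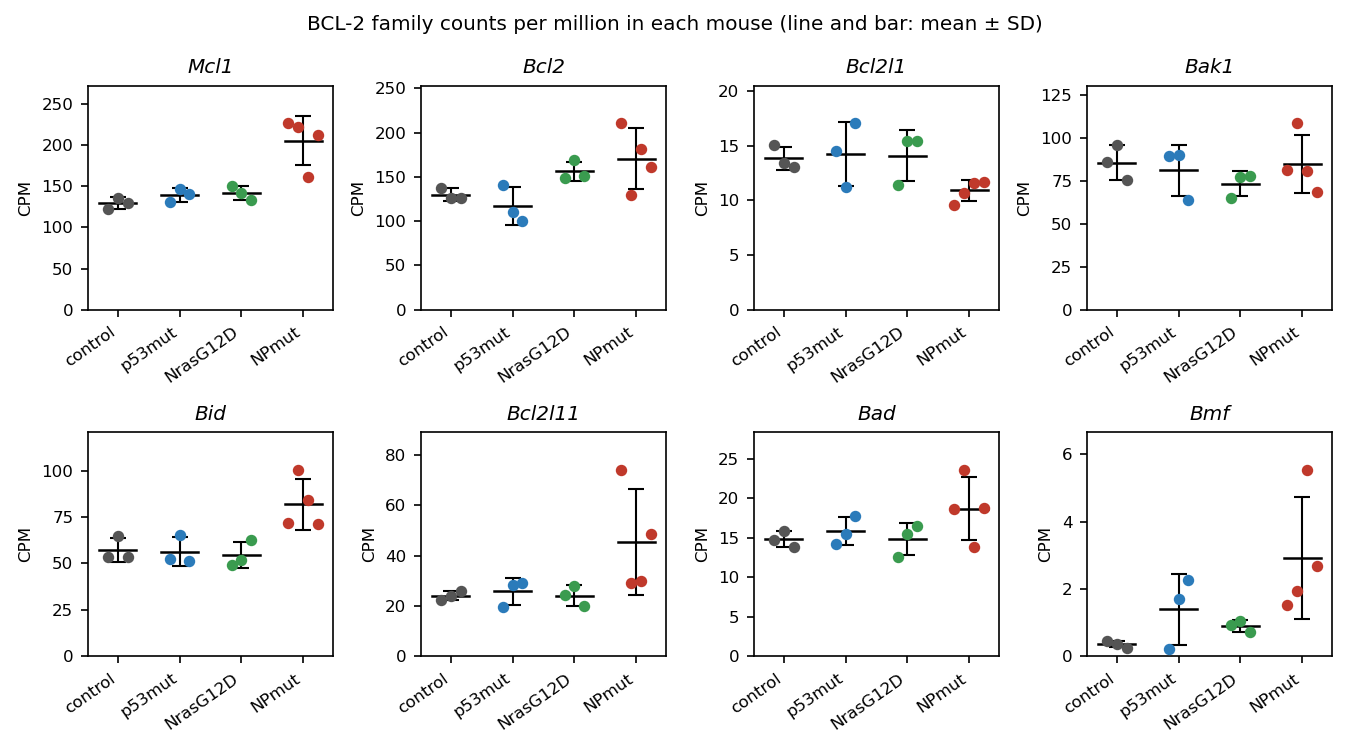
Levels in CPM (linear axis from 0, a separate scale for each gene) of the 8 tested members in each mouse, grouped as control, p53mut, NrasG12D (3 mice each), and NPmut (4 mice); points are mice, the line is the group mean, and the bar is ± SD. All NPmut mice sit above all control mice for Mcl1, Bid, Bcl2l11, and Bmf, and below them for Bcl2l1. The share of all genes tested that separate in this way was not counted.

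The comparison of NPmut with control HSPCs asked how mutant p53 and oncogenic Nras together, in overt leukemia, altered these genes. Mcl1 (1.59-fold), Bid (1.43-fold), and Bmf (7.97-fold) were higher in NPmut mice, so that the changed genes were 1 guardian and 2 BH3-only genes. No member was lower. These 3 of 8 tested members stand beside 10.8% of all genes tested that were called in either direction, 5.25% higher and 5.58% lower, and only Bmf was also a differentially expressed gene (DEG) of at least 2-fold, as were 5.98% of all genes. Since the members were chosen with earlier results of these data known, these shares are a description. In all 8, the fitted log2 fold change was above 0 for 6 and below 0 for 2. The median was 0.46, beside 0.01 over all genes tested. Since RNA was taken from mixed cells, fewer cells of a type and less RNA per cell cannot be told apart here or in the results below.

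Mcl1 (chr3:95658788-95663176, plus strand), whose short-lived protein keeps BAK and BIM bound, was at 122, 136, and 130 CPM in the control mice. In NPmut mice 1 to 4 it was at 227, 222, 161, and 212 CPM. NPmut mouse 3 was the lowest of its group but still above the highest control mouse, p53mut mice at 131 to 147, and NrasG12D mice at 134 to 150 CPM. The log2 fold change of NPmut against control was 0.67 (SE 0.117, edgeR's quasi-likelihood test, adjusted p = 0.00261), and it was 0.56 against p53mut (SE 0.117, adjusted p = 0.00765) and 0.53 against NrasG12D mice (SE 0.117, adjusted p = 0.0114). With the receptor background as a covariate, the calls against control (0.47, adjusted p = 0.162) and p53mut mice (0.41, adjusted p = 0.153) were lost, and with only the compared groups in the fit those against p53mut (adjusted p = 0.0663, and 0.0722 with the replicate block) and NrasG12D mice (0.0801 and 0.0941). The call against p53mut was also lost without p53mut mouse 1 (adjusted p = 0.0520), and the call against NrasG12D without NrasG12D mouse 2 (adjusted p = 0.0530) or 3 (adjusted p = 0.0592).

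Bcl2 (chr1:106538178-106714274, minus strand), the guardian for which the family is named, was at 138, 126, and 126 CPM in control and at 141, 110, and 100 CPM in p53mut mice. All 3 NrasG12D mice, at 149, 169, and 151 CPM, were above the control mice, by a log2 fold change of 0.27 (SE 0.161) that was not called (adjusted p = 0.684). NPmut mice, at 211, 129, 182, and 161 CPM, overlapped with both injected single mutants, and mouse 2 lay at the control level. Bcl2 was called higher in NPmut than in p53mut mice (log2 fold change 0.54, SE 0.152, adjusted p = 0.0357), although the groups overlapped, and not against control (0.39, SE 0.151, adjusted p = 0.114). The first was lost with library totals (adjusted p = 0.0912), only the compared groups (0.152, and 0.0634 with the replicate block), or the receptor background (0.262), and the second was called with no filter on low counts (0.0178). Both also depend on single mice: the first was lost without p53mut mouse 2 (adjusted p = 0.1001) or 3 (0.162), NrasG12D mouse 1 (0.0516), or NPmut mouse 1 (0.0902) or 3 (0.0574), and the second was called without NPmut mouse 2 (0.0143). Exons of Bcl2 overlap those of the antisense gene D630008O14Rik on the opposite strand over 6.09% of the exonic length of Bcl2.

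Bcl2l1 (chr2:152780668-152831728, minus strand), which encodes the guardian BCL-XL that erythroid cells and platelets depend on, was the only tested member with every NPmut mouse below every control mouse. It was at 15.1, 13.4, and 13.1 CPM in control and at 9.61, 10.7, 11.6, and 11.7 CPM in NPmut mice. The log2 fold change was −0.35 (SE 0.169) and was not called (adjusted p = 0.217). In p53mut and NrasG12D mice, Bcl2l1 ranged from 11.2 to 17.0 CPM on both sides of the control mice. The erythroid and megakaryocyte marker sums, given above, were also lower in NPmut mice, and their part in this value was not tested.

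Bcl2a1b (chr9:89199209-89207827, plus strand) and Bcl2a1d (chr9:88723285-88731914, minus strand), copies of the NF-κB-responsive guardian A1, were close to undetected. Bcl2a1b had 6 counts over all 13 libraries, 3 in control mouse 3 and 3 in NPmut mouse 2, and Bcl2a1d had 14, with at most 4 in any library. In the libraries with a count of 0 for either gene, that count allows a level of up to 0.150 to 0.239 CPM (3 counts), for counting error only. Exons of Bcl2a1b also overlap those of the protein-coding gene Gm29094 on the same strand over 49.1% of its exonic length. With this and the sequence the copies share, the counts may hold only the part of A1 reads that could be placed, and no difference between genotypes was detectable.

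Bak1 (chr17:27019810-27029009, minus strand), the pore-forming effector, was at 75.5 to 95.8 CPM in control, 64.0 to 90.3 in p53mut, 65.3 to 78.1 in NrasG12D, and 68.5 to 109 CPM in NPmut mice. Every group overlapped with control, and the log2 fold change of NPmut against control was −0.01 (SE 0.158, adjusted p = 0.972). With the receptor background as a covariate it was 0.53 (adjusted p = 0.173), and 0.48 against p53mut mice (adjusted p = 0.153), neither of which was called.

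Bid (chr6:120891930-120916853, minus strand), a BH3-only gene whose protein is cut by caspase-8 and so ties death receptors to mitochondria, was at 53.3, 65.0, and 53.6 CPM in the control mice. NPmut mice were at 72.0, 101, 84.0, and 71.1 CPM, all above the control, p53mut (51.4 to 65.4), and NrasG12D mice (48.9 to 62.6 CPM). Mouse 2 was the highest and mice 1 and 4 the lowest of the NPmut mice. The log2 fold change was 0.52 against control (SE 0.144, adjusted p = 0.0331), 0.54 against p53mut (SE 0.145, adjusted p = 0.0288), and 0.59 against NrasG12D mice (SE 0.145, adjusted p = 0.0205). The call against control was lost with library totals as the only scaling (adjusted p = 0.0690), with only the compared groups in the fit (0.0833), and without control mouse 1 (0.106), control mouse 3 (0.133), or NPmut mouse 3 (0.0524). Against p53mut it was lost without p53mut mouse 1 (adjusted p = 0.123) or 3 (0.128), and against NrasG12D without NrasG12D mouse 1 (0.109) or 2 (0.0935), and both with only the compared groups in the fit (0.0998 and 0.0778), the latter also with the replicate block there (0.0609). With the receptor background as a covariate, all 3 stayed called, at 1.03 against control. Exons of Bid overlap those of Bcl2l13 on the opposite strand over 628 bases, 17.7% of its exonic length, and Bcl2l13 itself was not called (log2 fold change −0.19, SE 0.0921, adjusted p = 0.212).

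Bmf (chr2:118528757-118549687, minus strand), whose protein binds the dynein light chain DYNLL2, showed the widest change from the lowest level. Control mice held 5 to 8 counts, or 0.460, 0.370, and 0.256 CPM. NPmut mice were at 1.52, 1.94, 5.54, and 2.70 CPM (30 to 103 counts), all above the control mice. p53mut mice were divided, with mouse 1 at 0.222 CPM, below the control mice, and mice 2 and 3 at 1.70 and 2.25 CPM, within the NPmut range. NrasG12D mice, at 0.918, 1.05, and 0.708 CPM, lay between the control and NPmut mice without overlap with either. The log2 fold change of NPmut against control was 2.99 (SE 0.660, adjusted p = 0.00999) and was not called without control mouse 3 (2.80, adjusted p = 0.0597). Against p53mut and NrasG12D mice it was 1.05 (SE 0.575, adjusted p = 0.289) and 1.70 (SE 0.598, adjusted p = 0.0927). The latter was called without p53mut mouse 1 (adjusted p = 0.0407), by DESeq2, and with no filter on low counts.

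Bcl2l11 (chr2:128126038-128162547, plus strand), which encodes BIM, a BH3-only protein that ERK marks for degradation, differed widely among NPmut mice. Control mice were at 22.4, 24.2, and 25.8 CPM, and NPmut mice at 74.2, 29.3, 29.9, and 48.7 CPM. All NPmut mice exceeded the control mice, but mice 2 and 3 only slightly. In RPKM, which uses unscaled totals, mouse 2 at 3.28 lay within the control range of 2.87 to 3.42. By CPM, p53mut mice at 19.7 to 29.2 and NrasG12D mice at no more than 28.1 CPM overlapped with control. The log2 fold change was 0.91 (SE 0.281) and just missed the threshold (adjusted p = 0.0529), as it did against p53mut (0.82, SE 0.281, adjusted p = 0.0856) and NrasG12D mice (0.91, SE 0.282, adjusted p = 0.0605). Against control it was called by DESeq2 (adjusted p = 0.0151), without the filter on low counts (1.48e-06), and without NPmut mouse 2 (0.0289) or 3 (0.0183), and it was not called in the other alternatives. Without NPmut mouse 2 or 3 it was also called against p53mut (adjusted p = 0.0435 and 0.0299) and NrasG12D mice (0.0351 and 0.0211). DESeq2 and the fit with no filter on low counts called it against both as well. The same mice, 1 and 4, had the lowest receptor background, 18.4 CPM each, against 48.5 and 61.0 CPM in mice 2 and 3, and with this background as a covariate the log2 fold change was −0.25 (SE 0.368, adjusted p = 0.702).

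Bad (chr19:6941861-6951899, plus strand), whose protein is held inactive by AKT and RSK phosphorylation, was at 13.9 to 15.8 CPM in control and 13.8 to 23.6 CPM in NPmut mice. NPmut mouse 2 was the highest and mouse 3 at the control level, and the log2 fold change of 0.33 (SE 0.174) was not called (adjusted p = 0.245). Its exons overlap those of Gpr137 on the opposite strand over 20.5% of their length, and those of Bak1 overlap Ggnbp1 over 25.5%, so that their counts depend on how strand was handled.

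**Figure D2:**
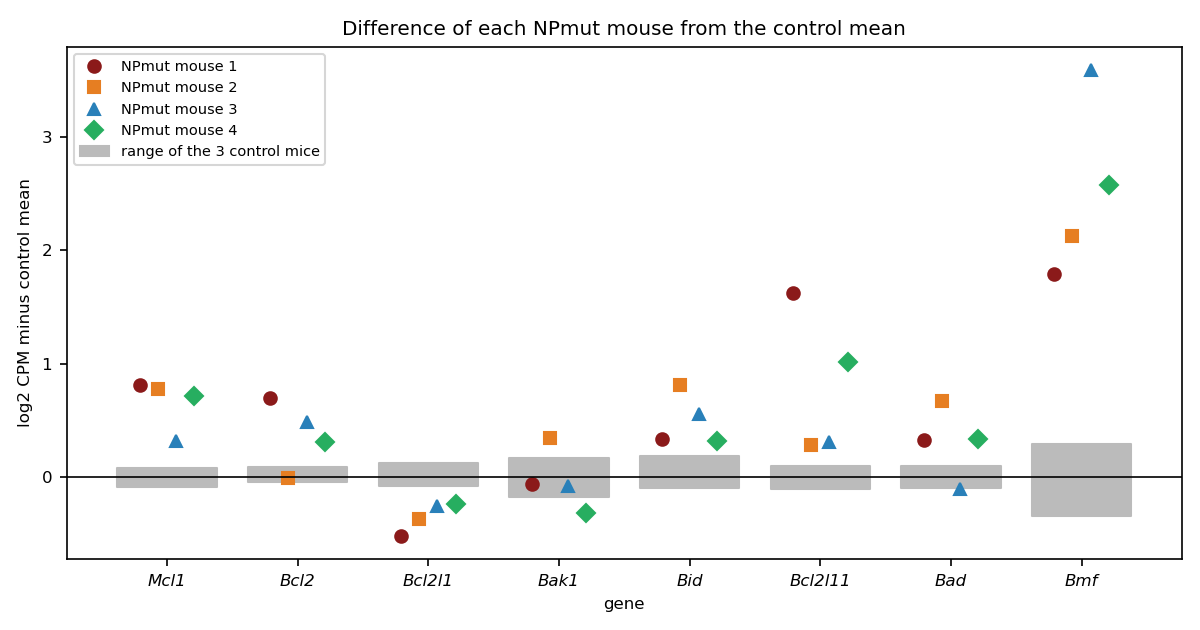
Difference of each of the 4 NPmut mice (one symbol each) from the mean of the 3 control mice, in log2 CPM, for the 8 tested members; grey bands span the control mice and the line at 0 is their mean. NPmut mice 1 and 4 are highest for Bcl2l11 (1.62 and 1.01), mouse 2 for Bid (0.82), and mouse 3 for Bmf (3.59), while mouse 3 is lowest for Mcl1 (0.32).

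The NPmut mice were thus not ordered alike across the members. Mouse 1 had the highest Mcl1, Bcl2, and Bcl2l11 and the lowest Bcl2l1 and Bmf of its group. Mouse 2 had the highest Bid, Bad, and Bak1 and the lowest Bcl2. In deviations from group means over the 13 libraries, Bid and Bak1 had a Pearson r of 0.77, Mcl1 and Bad of 0.60, Mcl1 and Bcl2l11 of 0.58, Mcl1 and Bid of −0.00063, and Bcl2 and Bad of −0.54. These libraries share groups, differ in depth, and are few, so the values are a description.

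Neither single mutation gave a called member against the control mice, which both comparisons share with the one above. For p53mut mice, 0 of 8 members were called, as were 0% of all genes, with edgeR's quasi-likelihood test. At an unadjusted p-value under 0.05, Bmf alone passed (log2 fold change 1.95, SE 0.693, adjusted p = 0.9997), beside 412 of all genes, and DESeq2 called 0 members and 2 genes in all. With the replicate number as a block in a fit of these groups alone, 45 genes and 0 of 7 tested members were called. For NrasG12D mice, 0 of 8 members were called beside 0.00562% of all genes (1 gene), 0 members had an unadjusted p-value under 0.05, beside 1620 genes in all, and DESeq2 called 0 members and 143 genes. Bmf had the largest fitted value in both comparisons, and in NrasG12D mice it was 1.29 (SE 0.707, adjusted p = 0.633). Leaving Bmf aside, log2 fold changes of the members lay between −0.15 and 0.11 in p53mut and between −0.22 and 0.27 in NrasG12D mice.

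**Figure D3:**
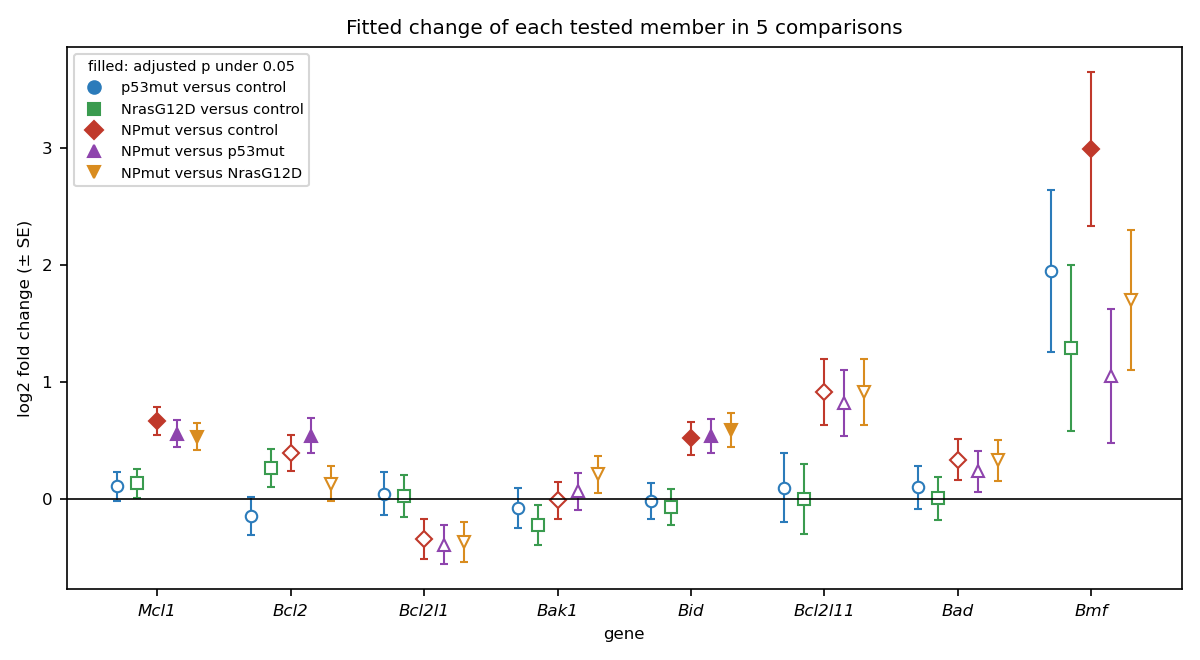
Fitted log2 fold change (vertical axis, bars ± SE) of the 8 tested members in 5 comparisons between genotypes, told apart by color and symbol; filled symbols have an adjusted p-value under 0.05. Mcl1 and Bid are filled in all 3 comparisons that involve NPmut mice, Bmf only against control and Bcl2 only against p53mut mice, and no symbol of the single mutants against control is filled.

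The comparisons of NPmut with each single mutant asked what the other mutation, with the lack of injection and the disease, added. Against p53mut mice, 3 of 8 members (Bcl2, Mcl1, and Bid) were higher and 0 lower, beside 9.91% of all genes in either direction, 4.72% higher and 5.19% lower. Against NrasG12D mice, 2 of 8 (Mcl1 and Bid) were higher and 0 lower, beside 8.9% of all genes, 4.04% higher and 4.86% lower. Both counts were 0 when only the compared groups were in the fit. The interaction is the NPmut log2 level minus p53mut minus NrasG12D plus control, the departure of NPmut mice from the sum of the single mutants. Only NPmut mice were not injected and were moribund, so the interaction also holds these differences and does not test the mutations alone. It called 0 of 8 members beside 1.62% of all genes with edgeR's quasi-likelihood test, and DESeq2 also called 0. Bid (0.61, SE 0.211, adjusted p = 0.162) and Mcl1 (0.42, SE 0.170, adjusted p = 0.232) had an unadjusted p-value under 0.05, as did 2853 of all genes tested (16%). The values of the other 6 members ranged from −0.42 to 0.82.

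The makeup of the chosen members, not of the whole family, is given as shares of the summed RPKM of each class in each mouse. The 5 anti-apoptotic members summed to 55.8 to 58.3 RPKM in control, 57.0 to 57.9 in p53mut, 60.6 to 64.1 in NrasG12D, and 69.3 to 90.7 RPKM in NPmut mice, with no overlap of the last group with the others. Mcl1 made up 68.6 ± 2.37% of this sum in control and 73.7 ± 4.92% in NPmut mice, ranges that overlapped. Bcl2l1 made up 5.15 to 6.07% in control and 2.29 to 3.63% in NPmut mice, and Bcl2 25.7 ± 1.86% and 23.1 ± 4.83%. Among the 5 pro-apoptotic members, the share of Bak1 was 56.9 to 60.1% in control and 45.6 to 52.1% in NPmut mice, and that of Bid 25.3 to 27.4% and 28.6 to 35.1%, both without overlap. The share of Bcl2l11 was 4.46 to 5.84% in the 3 control mice and 8.11 ± 4.03% (SD, n = 4) in NPmut mice, with overlap. The ratio of the anti-apoptotic to the pro-apoptotic sum was 0.915 ± 0.0775 in control, 0.965 ± 0.101 in p53mut, 1.13 ± 0.140 in NrasG12D, and 1.15 ± 0.189 in NPmut mice, and NPmut mice, from 0.942 to 1.32, overlapped with every other group. All of these shares are of transcripts and were not tested. The sums leave out other family genes, so the ratio does not describe the whole family. The BH3-only gene Pmaip1 had a mean of 0.899 RPKM in control, 0.915 in p53mut, 1.05 in NrasG12D, and 12.5 in NPmut mice. Adding it would on average lower the ratio most in NPmut mice. Means in control and NPmut mice were 9.75 and 10.01 RPKM for the effector Bax. For Bbc3 they were 1.58 and 1.55, and for the guardian Bcl2l2 2.71 and 2.67. A ratio with these genes was not computed.

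**Figure D4:**
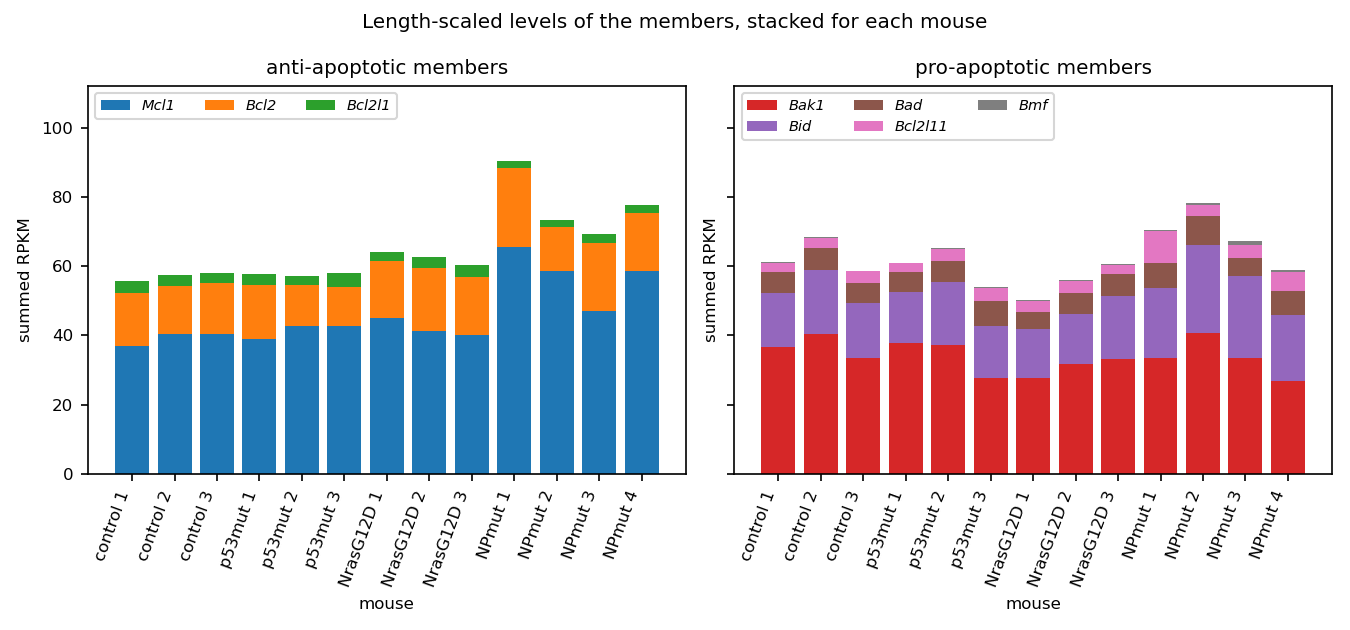
Summed RPKM (linear axis from 0) of the anti-apoptotic members Mcl1, Bcl2, and Bcl2l1 and of the pro-apoptotic members, stacked for each of the 13 mice; Bcl2a1b and Bcl2a1d are left out as too low to be seen. The anti-apoptotic stack is taller in all 4 NPmut mice than in any other mouse, mostly through Mcl1. The pro-apoptotic stacks of the chosen members overlap between genotypes. Other family genes, such as Pmaip1 and Bax, are not in the stacks.

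Other genes of the same pathway were described from lists chosen by role. Their counts in NPmut against control mice stand beside 5.25% of all genes tested that were higher and 5.58% that were lower. Of 4 other BH3-only genes, 2 were tested in NPmut against control mice, and Pmaip1, which encodes the MCL-1 ligand NOXA, was higher. It was at 2.25 to 2.59 CPM in control and at 47.5, 51.6, 3.61, and 41.7 CPM in NPmut mice, with mouse 3, which also had the lowest Mcl1, close to control (log2 fold change 3.92, SE 0.7104, adjusted p = 0.00521). Bbc3, which encodes PUMA, was not called (0.09, SE 0.378, adjusted p = 0.909), nor were the effectors Bax (0.16, SE 0.172, adjusted p = 0.599) and Bok (1.13, SE 0.767, adjusted p = 0.387). Of 4 other anti-apoptotic genes, only Bcl2l2, which encodes BCL-W, was tested and was not called (0.09, SE 0.164, adjusted p = 0.774), and of 6 BCL-2-like and BNIP3 genes 0 were.

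Of 20 genes that act downstream of the family at mitochondria, 1 was higher, with a median log2 fold change of 0.06 over the list. This was Birc3, which encodes the inhibitor of apoptosis cIAP2 (0.88, SE 0.144, adjusted p = 0.00171). Of 10 genes of the death receptor pathway, which signals through BID, 2 were higher, the cytokine Tnf (2.40, SE 0.379, adjusted p = 0.00136) and its receptor Tnfrsf1a (0.61, SE 0.174, adjusted p = 0.0376), and 1 was lower, the ligand Tnfsf10 (TRAIL, −0.77, SE 0.209, adjusted p = 0.0287). Of 14 kinases and partners that act on the member proteins, 1 was higher, Rps6ka1, which encodes the kinase RSK1 (0.62, SE 0.143, adjusted p = 0.0132).

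Of 14 transcription factors tied to the member genes, 5 were higher and 2 lower in NPmut mice, beside 5.25% and 5.58% of all genes tested. The NF-κB subunits Relb (1.502, SE 0.422, adjusted p = 0.0340) and Rel (1.10, SE 0.229, adjusted p = 0.00756) and the myeloid factor Spi1 (0.80, SE 0.202, adjusted p = 0.0213) had the largest values among those that were higher, which also included Atf4 and E2f1. Gata1, the erythroid factor, was lower (−1.80, SE 0.429, adjusted p = 0.0198), as was the cytokine-activated Stat5a (−0.48, SE 0.129, adjusted p = 0.0273). For p53mut and NrasG12D against control mice, 0 genes of these lists were called, beside 0% and 0.00562% of all genes tested.

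The genes most alike in pattern to each called member were found by Pearson's r of log2 CPM over the 13 libraries, among tested genes whose mean log2 CPM reached 3. Mcl1 was closest to Btg1 (0.97), Nr4a1 (0.96), and Junb (0.96), and Nr4a1 kept an r of 0.92 in deviations from group means. Bid was closest to Tm7sf3, Ctsb, and Txndc5 (each 0.97), with an r of deviations from 0.90 to 0.91. Bmf was closest to Ap3b1 (0.93), Lrp10 (0.92), and N4bp2l1 (0.90), and Bcl2 to Pou2f2 (0.93), Epb41l2 (0.90), and Neurl1b (0.89). These values share libraries, groups, and depth, and carry no test.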

How the data were processed

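RNA-Seq of Lin- cKit+ bone marrow cells of 13 mice was used, from libraries made with a stranded total RNA kit. The authors aligned the reads and deposited raw read counts per gene, 54838 Ensembl identifiers with 1 column per mouse. The submitters' processing notes name STAR 2.6.1d, R 3.6.1, DESeq2 1.26.0, and GRCm38.p6. The counting program, the annotation release, and the handling of strand are not given in the sources used here. GENCODE M21 gave names, exonic lengths, and coordinates for 54809 identifiers, and the other 29 hold 0.0032% of the counts. Lines that name no gene and value columns without a sample numbered 0.

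The test was the quasi-likelihood F-test of edgeR 4.0.16 (R 4.3.3), in 1 robust fit with a term per group over the 13 libraries, TMM scaling, and filterByExpr, which kept 17795 of 44944 genes with a count. Adjusted p-values are Benjamini-Hochberg values over these genes. Genes with an adjusted p-value under 0.05 were called, and DEGs also changed by a log2 of at least 1 in size. The fit was tested on simulated data. CPM used TMM-scaled totals, RPKM library totals and exonic lengths, and log2 CPM a prior count of 2. Deposited depth limits precision mainly for Bmf, Bcl2a1b, and Bcl2a1d.

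Mice were grouped by their labels. Each mouse is 1 sample, so that p-values set group differences against a spread between mice that all groups in the fit share. The labels number mice within groups. Deviations of control and p53mut mice with the same number had an r of 0.166, 0.163, and 0.152 over all genes tested. In the other pairs of groups, r ranged from −0.114 to 0.294. Mice with different numbers were not compared, so these values do not show whether the numbers are pairs. In alternative fits, the number was entered as a block for all groups in the fit. Alternatives were RLE factors, library totals, DESeq2 1.42.0, other filters, only the compared groups, the replicate block, the receptor background, and each mouse left out. The members and gene lists were chosen with earlier results of these data known. The text names all members, the genes of the family and pathway lists called in NPmut against control mice and the markers of the gate (1 of the called genes is not reported here, and values are given for at most 3 in each direction), and the 3 genes most correlated with each called member. Genes of the lists that are named without a call were chosen as the remaining members of their class. Promoter windows are from RefSeq, and all 10 members had at least 1.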

Additional observations from a re-analysis of the deposited data

Results flagged for a closer look

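Bcl2a1b in NPmut mouse 2 stood apart from the other NPmut mice, with 0.114 CPM from 3 counts against 0 in the other 3. For roughly normal values, chance sets 1 sample of a group apart by this measure in about 1 of 20 groups. That rate does not apply here, because the measure flags any gene with a count in only 1 mouse of the group.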

How the results depend on the processing

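The number of members called in NPmut against control mice was 3, was 2 to 4 with RLE factors, library totals, DESeq2, the stricter filter of 10 counts in every library (which left Bmf untested), only the compared groups, the replicate block, and the receptor background, was 5 with no filter on low counts, and ranged from 1 (without control mouse 3) to 5 (without NPmut mouse 2) with a mouse left out. Against p53mut mice it was 3, was 4 with DESeq2, 4 with no filter, 2 with library totals, 0 with only the compared groups, 1 with the replicate block in these groups alone, and 1 with the receptor background, and ranged from 1 to 4 with a mouse left out. Against NrasG12D mice it was 2, was 4 with DESeq2, 4 with no filter, 0 with only the compared groups, and 0 with the replicate block in these groups alone, and ranged from 0 to 3. In a fit of all libraries, the replicate block changed none of these counts. The interaction called 0 members and, with no filter, 1 (Bcl2l11). The single mutants against control kept 0 in every alternative. With the receptor background as a covariate, which differs between groups, several log2 fold changes moved. In NPmut mice, Bcl2l11 turned to −0.25 against control and −0.080 against p53mut mice, and Bak1 moved to 0.53 against control mice. In NrasG12D against control mice, Mcl1 turned to −0.014, Bak1 to 0.21, and Bid to 0.34, and Bcl2l11 moved to −0.85. In p53mut against control mice, Bcl2l11 turned to −0.17. The cause of these changes was not tested. All NPmut mice were above control for 4 members by CPM and for 3 by library totals or RPKM. How many of all genes tested separate in this way was not counted, so these counts cannot be set against a background. The Mcl1 share in NPmut mice was 73.7% with or without Bcl2a1a.

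Over all genes, calls in NPmut against control ranged from 725 to 2843 (813 to 2211 with a mouse left out) around 1927, against p53mut from 648 to 2316 (657 to 2004) around 1763, against NrasG12D from 544 to 2350 (674 to 1823) around 1584, in NrasG12D against control from 0 to 273 (0 to 80) around 1, in p53mut against control from 0 to 45 (0 to 1) around 0, and for the interaction from 224 to 933 (66 to 653) around 289. Library totals moved the median log2 fold change of all genes in NPmut against control from 0.01 to −0.11 and the higher and lower calls from 934 and 993 to 641 and 1342. With 1 mouse of a group left out, the others are taken to vary alike. Depth limits Bcl2a1b, Bcl2a1d, and Bmf in control mice.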
